A study of Homo sapiens with 15 samples.

Results

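SLITRK6, RPL3L, CSF3, LAMA4, ITGAM, XIRP2, CCNB3, CYSRT1 and SLC4A4 are 9 rare messages of U2OS cells, a human osteosarcoma line, among 19531 gene names in the files. They were picked because reads were present in at least 1 cell cycle gate and at or near 0 in another, so their levels by gate are given as a description, with no test. All regions of a name were summed, which gave 27 regions for the 9 names out of 68625 regions in all. For 45 minutes, growing cells were given 4-thiouridine, which enters RNA in place of uridine, and EdU, which marks DNA as it is copied. The treatment protocol describes asynchronous growth with phases separated by the sort, whereas the series title calls the cells synchronised. Cells fixed in glyoxal and methanol were then sorted by EdU and DNA content. The groups were G1, Early_S, Late_S and G2 (the gate that also takes mitotic cells), each of 3 libraries whose RNA was alkylated, and No_alkylation, 3 libraries of labelled cells whose RNA was not alkylated. The sources used here do not give the gate of the No_alkylation cells, nor whether the libraries of a group came from separate cultures, so p-values measure the spread between these libraries only.

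In SLAM-seq, alkylation turns 4-thiouridine into a base that is read as C, so a read with a T>C conversion comes from RNA made during the pulse, apart from errors, and the other reads come mostly from older RNA. The level of a message is what synthesis and decay leave behind, and a message that is made in a short window and decays fast is rich in converted reads. Most of these 9 genes are known for work in specialised tissues and not in bone tumour cells. They encode a neuronal membrane protein, a muscle ribosomal protein, a granulocyte growth factor, a basement membrane chain, a leukocyte integrin, a muscle actin-binding protein, a meiotic cyclin, a skin protein and a bicarbonate transporter.

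The promoters of 3 of them are shown. They were picked by a short motif each holds and by reads in G1, highest there for SLITRK6 and CYSRT1 and 1 for ITGAM. Each is the 250 bases before the annotated start, 5′ to 3′ on the gene's strand, from RefSeq on GRCh38.p14. Capitals mark TGAGTCA, the site bound by AP-1 (dimers of FOS and JUN proteins), in the promoters of SLITRK6 (chr13:85799420-85799669, minus strand) and CYSRT1 (chr9:137224924-137225173, plus strand). In the promoter of ITGAM (chr16:31259725-31259974, plus strand) they mark TTTGAA, the CHR element found in many genes of the G2 programme.
SLITRK6: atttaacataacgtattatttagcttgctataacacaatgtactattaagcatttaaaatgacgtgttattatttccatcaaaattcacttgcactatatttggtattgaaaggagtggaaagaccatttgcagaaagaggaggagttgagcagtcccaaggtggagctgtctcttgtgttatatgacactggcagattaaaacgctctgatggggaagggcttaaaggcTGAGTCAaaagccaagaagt
CYSRT1: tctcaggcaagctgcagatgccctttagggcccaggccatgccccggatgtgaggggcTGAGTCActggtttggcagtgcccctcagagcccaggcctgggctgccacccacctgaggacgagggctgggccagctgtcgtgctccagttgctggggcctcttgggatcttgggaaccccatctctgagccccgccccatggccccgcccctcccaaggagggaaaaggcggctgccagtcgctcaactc
ITGAM: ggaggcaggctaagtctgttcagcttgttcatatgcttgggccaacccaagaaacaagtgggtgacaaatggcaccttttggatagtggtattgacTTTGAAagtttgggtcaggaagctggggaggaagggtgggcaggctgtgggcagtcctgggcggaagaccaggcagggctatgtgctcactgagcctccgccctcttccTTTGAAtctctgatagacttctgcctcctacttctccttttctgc
Both strands of such windows were searched for these motifs and for the letters TATAAA, known as the TATA box. The search also took CCAAT, the box bound by NF-Y, and GGGCGG, the GC box bound by SP1. E2F sites were searched as TTTCGCGC and also as TTTGGCGC. None of the matches in these 3 windows overlapped another. Of the 9 genes, 7 matched the RefSeq table, with 12 windows in all. RPL3L and CSF3 are named only. TGAGTCA was present in 1 window each of SLITRK6, CYSRT1, XIRP2 and SLC4A4, which is 4 of 12 windows, against 4.20% of 35116 windows of all genes. SLC4A4, which had 0 reads in G1, thus held TGAGTCA as well. In SLITRK6 it lay 14 to 20 bases before the start and in CYSRT1 186 to 192 bases before it. TTTGAA was present in the window of ITGAM alone among the 12, against 13.3% of all windows. The GC box was present in 4 of 12 windows, against 42.6% of all. Those of CYSRT1 and ITGAM were among them, where it is not in capitals. CCAAT was present in 2 windows, against 32.0%, and the TATA box in 1, against 10.7%. No E2F site was present in the 12 windows, against 0.968% of all windows. A match of letters is a description and not a binding site.

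Libraries held 16096695 to 21803972 reads. T>C reads were 21.5% to 22.8% of reads in G1, 17.9% to 18.9% in Early_S, 9.95% to 10.1% in Late_S, 9.77% to 10.4% in G2 and 1.00% to 1.03% in No_alkylation. Over the 12 alkylated libraries the 9 messages had 137 to 821 reads each, and 45 of the 108 pairs of a message and a library were at 0. Levels are given as CPM, normalised counts scaled to library size, computed here, with the SD over 3 libraries. A group at 0 was given a floor of 3 reads over its 3 libraries, so a fold against it is a lower bound. Reads carried no molecular identifiers, so floors and intervals cover counting error only. In bulk RNA, fewer cells that hold a message and less of it in each cell cannot be told apart.

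Of the 9 messages, 7 had their highest mean level in G1, and for SLITRK6, RPL3L and CSF3 every G1 library lay above every other library. Of the 13755 genes tested, 31.8% had their highest mean in G1 and 4.85% had every G1 library above every other library, and nothing is read from the counts of the 9, which were picked on these values. ITGAM and SLC4A4 had 1 read and 0 reads in G1, with reads in every library of the other gates. LAMA4, XIRP2, CCNB3 and CYSRT1 had reads in several gates, with libraries that overlapped between them. The F-test across the 4 gates, by edgeR with Benjamini-Hochberg adjustment over all genes, called 34.1% of the 13755 genes tested. It called 9 of the 9 messages, a count fixed by how they were picked and from which nothing is read. The calls of LAMA4, XIRP2, CCNB3 and SLC4A4 ended when certain single libraries were left out, and RPL3L was not called by DESeq2 (adjusted p 0.159). The plot of levels by library shows each value.

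**Figure D1:**
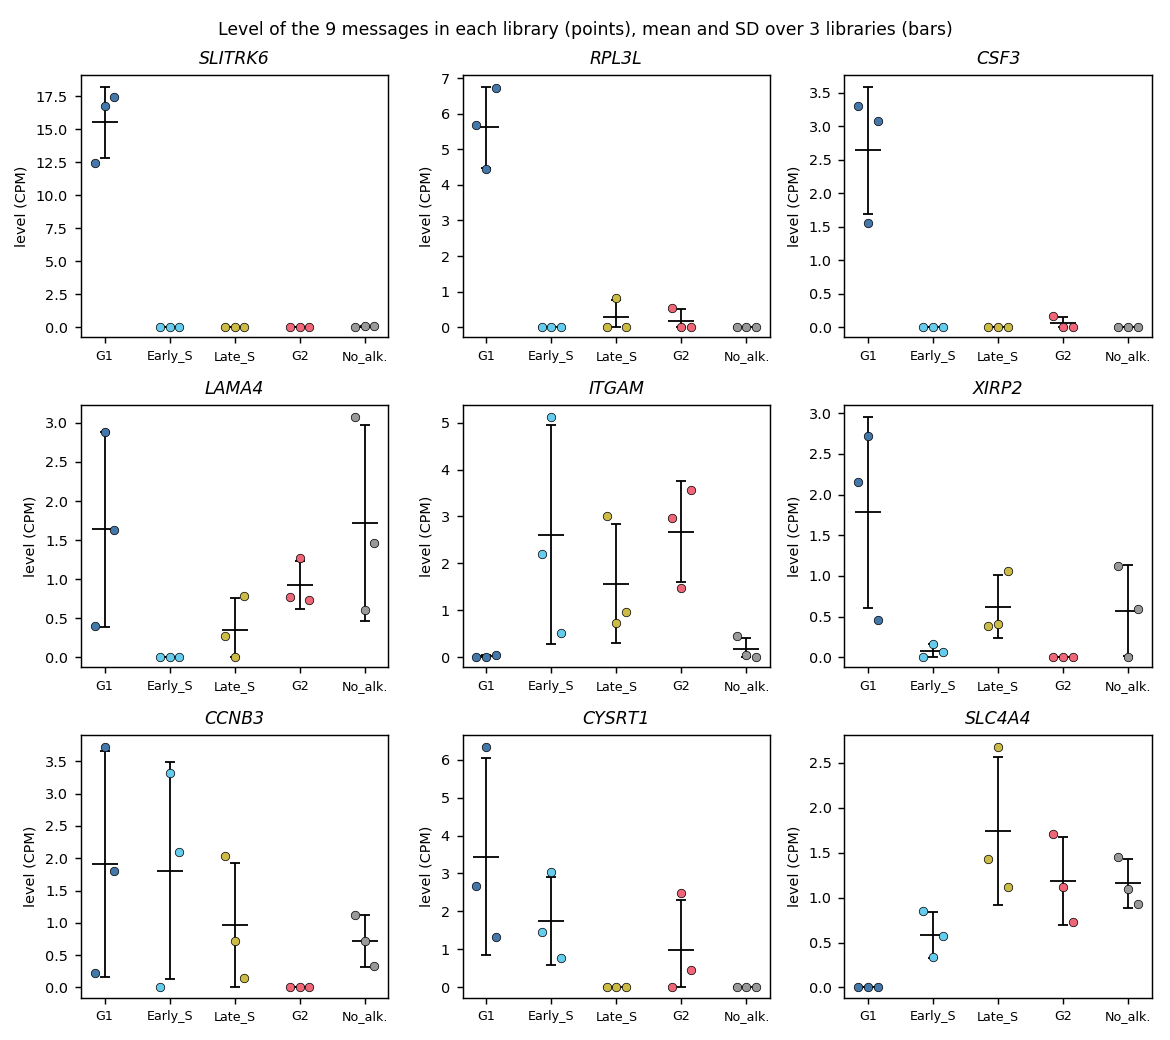
Level of each message in CPM (vertical axis, linear, scaled separately in each panel) in G1, Early_S, Late_S, G2 and No_alkylation. Points are libraries, and bars are the mean and SD over 3 libraries, with the lower bar ending at 0. SLITRK6 lies at 12.5 to 17.4 CPM in G1 and at 0 in the other gates, whereas CCNB3 and CYSRT1 spread widely within a gate.

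SLITRK6, a membrane protein with leucine-rich repeats that guides neurite growth and is needed for hearing, was read almost only in G1. It had 219, 302 and 300 reads in G1, 0 in each library of Early_S, Late_S and G2, and 0, 1 and 1 in No_alkylation. In G1 this was 15.5 ± 2.70 CPM, at least 277-fold above Early_S, at least 307-fold above Late_S and at least 305-fold above G2. All the reads lay in a single region of 1193 bases, chr13:85792790-85793982 (hg38, minus strand), which ends at the RefSeq end of the gene. Most of them were new: 190, 284 and 231 of the G1 reads carried a conversion. That is a labelled share (T>C reads over all reads) of 85.9% (exact binomial interval 83.3% to 88.2%). Among the 12579 genes with at least 50 reads in G1, whose median was 26.6%, this share stood at a percentile of 97.9. Of the covered T positions in these reads, 10.4% were converted.

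RPL3L, the form of ribosomal protein L3 that replaces RPL3 in striated muscle, had the same shape at a lower level. Its G1 libraries had 100, 80 and 116 reads, its Early_S libraries 0, 0 and 0, its Late_S libraries 0, 16 and 0, its G2 libraries 10, 0 and 0, and those of No_alkylation 0, 0 and 0. The lowest G1 library lay above every other library, and the few reads of Late_S and G2 each came from 1 library. The mean was 5.62 ± 1.15 CPM in G1, at least 99.8-fold above Early_S, with 0.274 ± 0.475 CPM in Late_S and 0.183 ± 0.318 CPM in G2. None of its reads was counted as multimapped, and whether reads of RPL3 were assigned to it was not tested. In G1, 52, 46 and 68 of its reads were T>C reads, a share of 56.1% (50.2% to 61.8%; percentile 84.3). None of the 16 reads of Late_S and none of the 10 of G2 were, which allows shares of up to 18.8% and 30.0%. The region was chr16:1943974-1944836 (hg38, minus strand), at the RefSeq gene end.

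CSF3 encodes G-CSF, the secreted factor that drives granulocyte production. It had 58, 28 and 53 reads in G1, none in Early_S or Late_S, 3, 0 and 0 in G2 and none in No_alkylation. The level in G1 was 2.64 ± 0.949 CPM, at least 46.9-fold above Early_S and at least 52.0-fold above Late_S. Against the 3 reads of G2 the ratio was 51.6, with a counting interval of 17.3 to 253.3. T>C reads numbered 23, 9 and 20 in G1, a share of 37.4% (29.4% to 46.0%; percentile 66.8), and all 3 reads of the G2 library were T>C reads. The reads lay in the last of 2 regions, chr17:40016795-40017813 (hg38, plus strand).

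These 3 messages therefore share G1 libraries that do not overlap any other library, yet their labelled shares in G1 differ, with intervals that do not overlap. The shares of their normalised level that lay in G1 were 100%, 92.5% and 98.0%.

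XIRP2, an actin-binding protein with Xin repeats found in heart and skeletal muscle, also had its highest level in G1 but with more spread. It had 38, 49 and 8 reads in G1, 0, 3 and 1 in Early_S, 7, 8 and 23 in Late_S, 0, 0 and 0 in G2, and 20, 0 and 11 in No_alkylation. The G1 mean of 1.78 ± 1.18 CPM was at least 35.3-fold above G2, but the lowest G1 library (0.464 CPM) lay within the Late_S range of 0.384 to 1.07 CPM. All 8 reads of Late_S library 2 were multimapped, as were 7.14% of its reads in all. T>C reads in G1 were 12, 0 and 8, so the G1 library with most reads had none and the library with 8 reads had only T>C reads. The pooled G1 share was 21.1% (13.4% to 30.6%), against 0 of 38 reads in Late_S, which allows up to 7.89%. The reads lay at the RefSeq gene end, chr2:167257857-167259753 (hg38, plus strand).

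CYSRT1, a small cysteine-rich protein of the skin's outer layer, was read in G1, Early_S and G2 but in neither Late_S nor No_alkylation. Its reads were 47, 114 and 23 in G1, 29, 54 and 12 in Early_S, 0, 0 and 0 in Late_S, 0, 47 and 10 in G2, and 0, 0 and 0 in No_alkylation. Means were 3.45 ± 2.59 CPM in G1, 1.75 ± 1.17 in Early_S and 0.984 ± 1.33 in G2, and the libraries of these 3 gates overlapped. G1 lay at least 68.8-fold above Late_S, Early_S at least 35.1-fold and G2 at least 19.1-fold. T>C reads in G1 were 12, 19 and 17, so the labelled shares of its libraries ranged widely, at 25.5%, 16.7% and 73.9%. The pooled share was 26.1% in G1 (19.9% to 33.1%), close to the median of that gate. It was 7.37% in Early_S (3.01% to 14.6%), and 0 of 57 reads in G2, which allows up to 5.26%. All 7 T>C reads of Early_S came from the library with 12 reads. The region was chr9:137226057-137226311 (hg38, plus strand), 4 bases short of the RefSeq gene end.

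CCNB3, cyclin B3, is a B-type cyclin known for its work in meiosis, and it had no reads in G2. It had 4, 67 and 31 reads in G1, 0, 59 and 33 in Early_S, 37, 14 and 3 in Late_S, 0, 0 and 0 in G2, and 20, 13 and 6 in No_alkylation. The means of 1.92 ± 1.75 CPM in G1, 1.81 ± 1.68 in Early_S and 0.963 ± 0.969 in Late_S did not differ beyond their spread. They lay at least 37.9-fold, 33.8-fold and 17.9-fold above G2. The labelled shares of these gates were 14.7%, 6.52% and 9.26%, and 15 of the 26 T>C reads came from G1 library 3. Reads lay in 4 of 7 regions over all 15 libraries, and 94.4% of those in alkylated libraries lay in the last, chrX:50351607-50351910 (hg38, plus strand). CCNB1 and CCNB2, the mitotic B cyclins, were both called by the F-test, with their highest level in G2: CCNB1 averaged 348.4 ± 9.64 CPM in G2 and 132.1 ± 17.3 CPM in G1.

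LAMA4, the laminin alpha-4 chain of vessel and muscle basement membranes, had reads in G1, Late_S and G2 but none in Early_S. Its reads were 7, 52 and 28 in G1, 0, 0 and 0 in Early_S, 5, 0 and 17 in Late_S, 14, 24 and 16 in G2, and 55, 11 and 27 in No_alkylation. G1 (1.64 ± 1.24 CPM) and G2 (0.926 ± 0.302 CPM) overlapped, and lay at least 29.3-fold and at least 16.3-fold above Early_S. No_alkylation was as high as G1, at 1.72 ± 1.26 CPM. None of its 163 reads in alkylated libraries was a T>C read, which allows a share of up to 3.45% in G1 and 5.56% in G2. In No_alkylation 2 of 93 reads were. Of the 12579 genes with at least 50 reads in G1, 0.835% had no T>C read there, and in G2 4.35% of such genes had none. Those genes include far more abundant ones, so these are not rates at the depth of LAMA4. Over all regions with 10 to 120 reads in a library, 25.1% to 38.5% had no T>C read in G1 and 53.2% to 59.2% in G2. How often all 3 libraries of a gate lack T>C reads at this depth was not tested. Reads lay in 5 of 8 regions, 85.3% of those in alkylated libraries in chr6:112108760-112109436 (hg38, minus strand), which ends 829 bases before the RefSeq gene end.

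ITGAM, the CD11b chain that pairs with ITGB2 into the leukocyte integrin Mac-1, was the reverse of the G1 messages. It had 0, 0 and 1 reads in G1, 44, 91 and 8 in Early_S, 55, 14 and 21 in Late_S, 54, 28 and 78 in G2, and 8, 1 and 0 in No_alkylation. The means of 2.61 ± 2.34 CPM in Early_S, 1.57 ± 1.26 in Late_S and 2.68 ± 1.07 in G2 overlapped, and every library of these gates lay above every G1 library. G2 over G1 was a ratio of 143.6, with a counting interval of 25.4 to 5708 since G1 held 1 read. The labelled share was 9.09% in Early_S (4.93% to 15.04%; percentile 20.5), with 9, 0 and 4 T>C reads. It was 0 of 90 reads in Late_S and 0 of 160 in G2, which allows up to 3.33% and 1.88%. Reads lay in chr16:31331708-31332892 (hg38, plus strand), 15 bases past the RefSeq gene end. ITGB2, its partner chain, averaged 17.7 ± 2.79 CPM in G1, 15.6 ± 5.91 CPM in Early_S, 21.9 ± 4.97 CPM in Late_S and 17.5 ± 3.42 CPM in G2, and was not called.

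SLC4A4, the electrogenic sodium bicarbonate cotransporter of kidney and pancreas, was the other message missing from G1. It had 0, 0 and 0 reads in G1, 17, 6 and 9 in Early_S, 26, 52 and 24 in Late_S, 31, 21 and 16 in G2, and 26, 20 and 17 in No_alkylation. Late_S (1.74 ± 0.825 CPM) lay above every Early_S library (0.587 ± 0.257 CPM) and overlapped G2 (1.18 ± 0.490 CPM) and No_alkylation (1.16 ± 0.271 CPM). It lay at least 30.3-fold above G1, and Early_S and G2 at least 10.5-fold and 20.3-fold. All 9 T>C reads came from Early_S library 1, a pooled share of 28.1% (13.7% to 46.7%), with 0 of 102 in Late_S and 0 of 68 in G2, which allows up to 2.94% and 4.41%. The reads lay in a region of 4300 bases, chr4:71567788-71572087 (hg38, plus strand), the longest of the 9.

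New RNA was unevenly spread over the gates. Summed over the 9 messages, 1006 of 1725 reads in G1 were T>C reads, 37 of 366 in Early_S, 5 of 322 in Late_S, 3 of 352 in G2 and 2 of 237 in No_alkylation. Without SLITRK6 the G1 sum was 301 of 904 reads, or 33.3%, while Early_S had 10.1%, Late_S 1.55%, G2 0.852% and No_alkylation 0.851%. Reads in Late_S and G2 were thus about as poor in conversions as reads in No_alkylation, while their libraries as a whole held about 10% T>C reads. Those sums cover few reads. All 5 T>C reads of Late_S were of CCNB3 in library 1, and all 3 of G2 were of CSF3 in library 1. The 2 of No_alkylation were of LAMA4 in library 1. Of the 38 pairs of a message and an alkylated library with at least 20 reads, 20 had no T>C read. A lack of T>C reads was common at low depth. Over all regions with 10 to 120 reads in a library, 25.1% to 38.5% had none in G1 and 34.1% to 43.4% in Early_S. In Late_S 49.0% to 49.9% had none, and in G2 53.2% to 59.2%. The messages had none in 4 of 15 such values in G1 and 3 of 8 in Early_S. They had none in 10 of 11 in Late_S and 12 of 12 in G2, which are few values. The plot of T>C and other reads and the plot of labelled shares give the values.

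**Figure D2:**
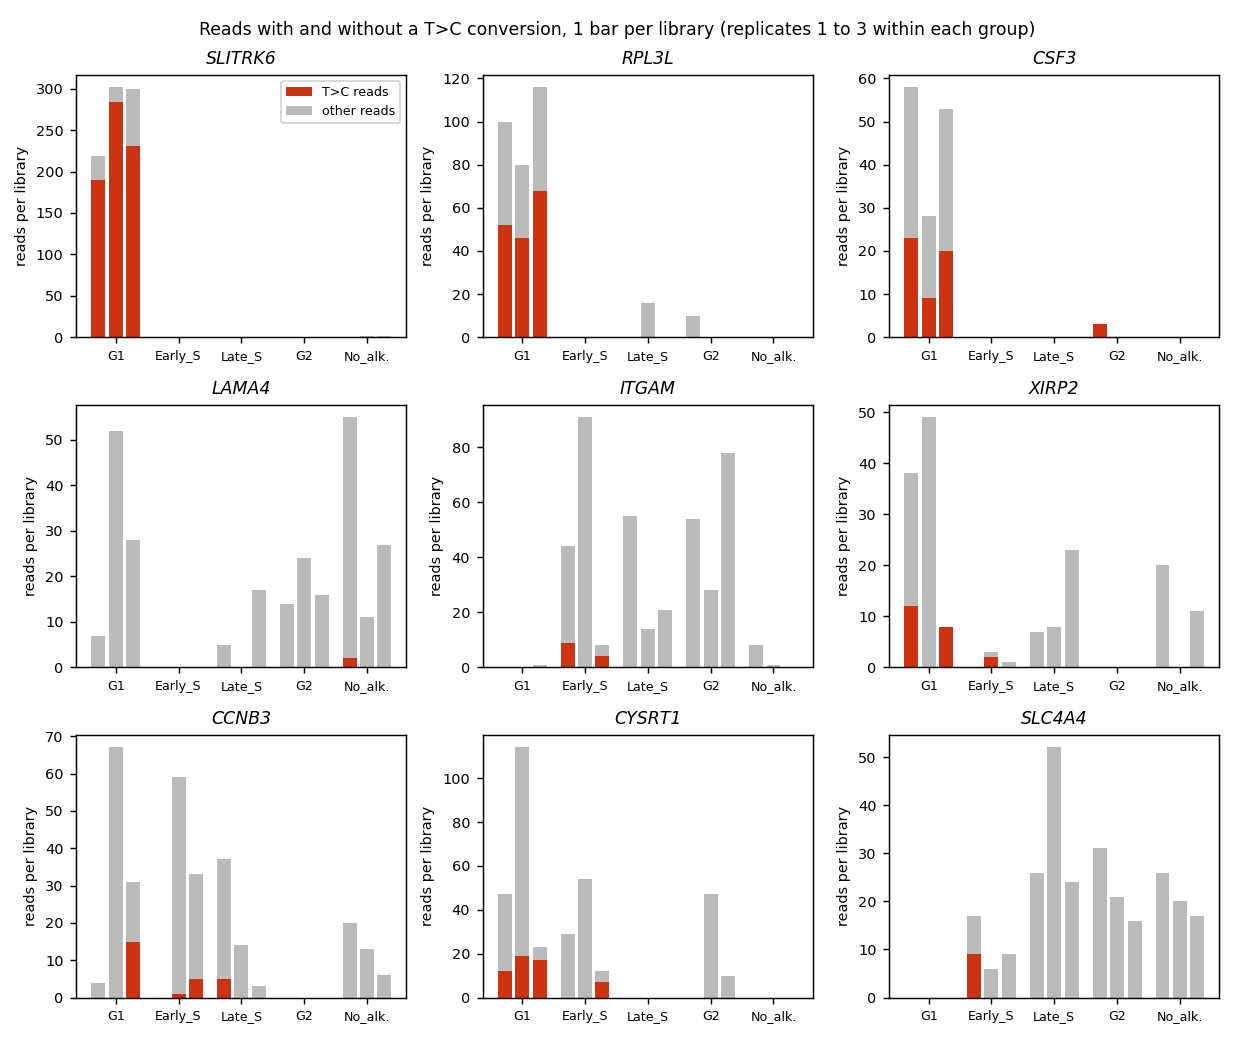
Reads per library (vertical axis, linear, scaled separately in each panel), stacked as T>C reads and other reads, with replicates 1 to 3 side by side in G1, Early_S, Late_S, G2 and No_alkylation. T>C reads make up most of the SLITRK6 bars in G1 and are missing from every alkylated bar of LAMA4.

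**Figure D3:**
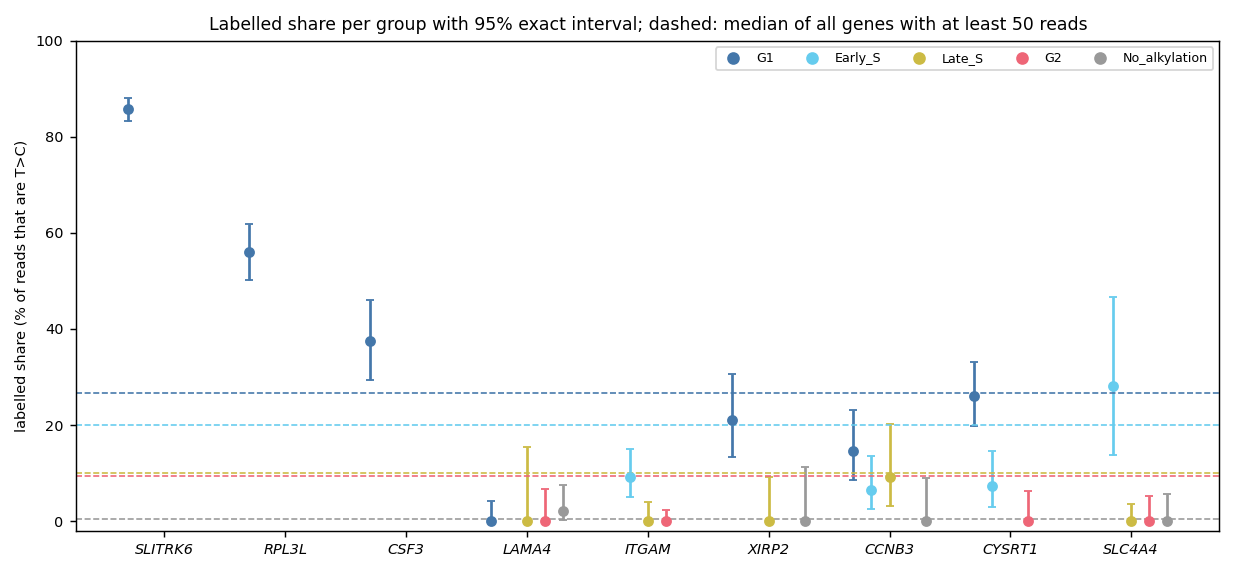
Labelled share in percent (vertical axis, linear) for each message in groups with at least 20 reads, summed over 3 libraries, with the exact 95% binomial interval, which covers counting error only. Dashed lines are the median over all genes with at least 50 reads in the group: 26.6% for G1, 19.9% for Early_S, 9.97% for Late_S, 9.41% for G2 and 0.473% for No_alkylation. SLITRK6, RPL3L and CSF3 lie above the G1 line, and ITGAM and SLC4A4 lie at 0 in Late_S and G2.

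The ratio of T>C to other reads in alkylated against No_alkylation libraries was not used to pick the messages and could be tested. By edgeR with Benjamini-Hochberg adjustment, 80.9% of 13506 genes had a higher ratio in alkylated libraries and 0 a lower. With TMM factors for each kind of read, 2729 were higher and 1001 lower. Of the 9 messages 7 passed the filter on reads and T>C reads, and LAMA4 and SLC4A4 did not. RPL3L, CSF3 and CYSRT1 had 0 reads in No_alkylation, so no ratio could be formed there and their lack of a call says nothing. The other 4, SLITRK6, ITGAM, XIRP2 and CCNB3, had 2, 9, 31 and 39 reads in No_alkylation, none of them a T>C read. Of these 4 messages 0 were called by edgeR, with 0 under an unadjusted p of 0.05. DESeq2 called 0 as well, with 0 under an unadjusted p of 0.05. So few reads limit the test, and nothing is read from this count against the share of all genes. For SLITRK6 the fitted ratio was higher by 4.77 ± 2.38 on the log2 scale (SE derived from the F statistic). Its adjusted p by edgeR was 0.0654 (0.0594 to 0.789 over the settings tried). With 0 T>C reads in No_alkylation, the size of this difference is set by the fit and is not a measured fold. A p that misses the threshold does not show that the ratios were equal. The nascent counts, T>C reads across the 4 gates, were called by edgeR in 10.4% of 11474 genes tested. SLITRK6 and RPL3L were the 2 messages with enough T>C reads, and 2 of 2 were called, in the contrast that picked them.

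Within a gate, these messages mostly scattered more than counting alone gives. The variance of reads over the mean, which is 1 for counting error alone, was 8.19 for SLITRK6 and 3.30 for RPL3L in G1, 36.3 for CYSRT1 in G1, 36.3 for ITGAM in Early_S and 29.4 for CCNB3 in G1. It was lower elsewhere, at 1.56 for LAMA4 and 2.57 for SLC4A4 in G2. SLITRK6, RPL3L and CYSRT1 averaged more than 50 reads in G1, so the medians that follow are not at their depth. Among all genes with 10 to 50 reads on average in a gate, the median of this ratio was 8.63 for G1, 10.9 for Early_S, 10.4 for Late_S and 13.6 for G2. Of such genes 13.7% in G1 and 27.6% in G2 had at least 1 library at 0 reads, so a library at 0 beside libraries with many reads was common at this depth.

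The files also give the number of T positions that the reads cover, and this count shows how alike the reads of a message are. Reads from many places in a region need not give a whole number of T positions per read, whereas reads over a single stretch always do. This measure was chosen after the values were seen. The 54 reads of ITGAM in G2 library 1 covered 864 T positions, 16.0 each. The 24 and 16 reads of LAMA4 in G2 libraries 2 and 3 covered 576 and 384, or 24.0 each, and the 47 reads of CYSRT1 in G2 library 2 covered 8 each. Over regions with 10 to 120 reads, the messages had a whole number in 0 of 15 values in G1, 1 of 8 in Early_S, 4 of 11 in Late_S, 7 of 12 in G2 and 5 of 12 in No_alkylation. The share over alkylated libraries was 12 of 46 values, or 26.1%, against 15.1% to 29.1% for all regions of a library. By gate, 0 of 15 in G1 compares with 15.1% to 25.9% of all regions there, and 1 of 8 in Early_S with 19.6% to 27.7%. In Late_S 4 of 11 compares with 21.1% to 23.8%, in G2 7 of 12 with 25.6% to 29.1%, and in No_alkylation 5 of 12 with 19.2% to 22.6%. These are few values, and some of the whole numbers in G2 rest on 10 to 16 reads. How many RNA molecules gave rise to these reads was not tested.

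The same pattern of reads was looked for among all names. At least 100 reads over the 3 libraries of a gate, with at least 10 in each, were found for 12272 names. Of those, 26 had at most 3 reads over the libraries of another gate and so qualified, which is 0.212%. Of these, 18 were highest in G1, and 6 were among the 9 messages: SLITRK6, RPL3L, CSF3, ITGAM, CYSRT1 and SLC4A4. LAMA4 entered through its G2 libraries (14, 24 and 16 reads) when the minimum was 50 reads, where 83 names qualified. XIRP2 and CCNB3 entered at neither, because no gate of either met the minimum in total together with 10 reads in each library. At 200 reads 3 names were left, SLITRK6, RPL3L and CSF2. The share that qualified was 0.650% of 12775 names at 50 reads and 0.0265% of 11308 at 200, so it fell as the minimum rose. Names far more abundant than the 9 messages are among those counted, so these shares are not rates at the depth of the messages. The plot of the gates with most and fewest reads sets the 9 messages among all names.

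**Figure D4:**
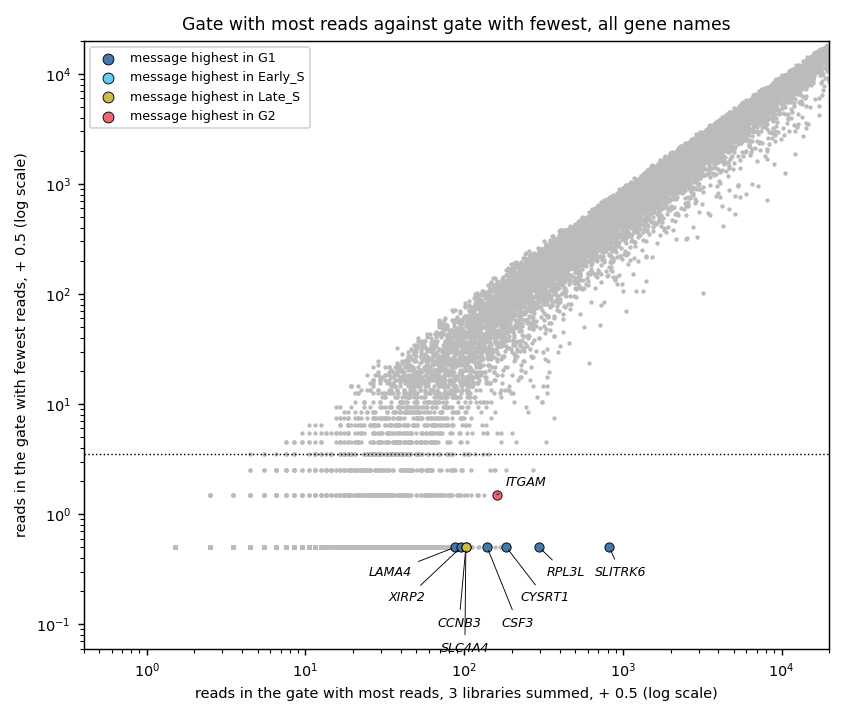
Reads in the gate with most reads (horizontal axis, log scale) against reads in the gate with fewest (vertical axis, log scale), each summed over 3 libraries with 0.5 added, for all gene names (grey) and the 9 messages (coloured by highest gate). The dotted line lies above 3 reads. The 9 messages lie at 0 reads in the lowest gate, or 1 read for ITGAM, with SLITRK6 farthest right at 821 reads.

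Relatives of the 9 genes give the levels their families reached in the same cells, and the counts leave the 9 out. Each count is set against the 34.1% called among all genes tested, and with so few genes none is read as particular to its list. Of 13 other cytokines and receptors of the CSF3 kind, 8 were tested and 5 called, 2 highest in G1 and 3 highest in Early_S. Those highest in G1 were CSF2, which encodes GM-CSF, and IL1A, an alarm cytokine. CSF2 had 5.14 ± 2.57 CPM in G1, 0.410 ± 0.274 CPM in Early_S, 0.405 ± 0.368 CPM in Late_S and 0.0305 ± 0.0529 CPM in G2, and 126 of its 270 G1 reads were T>C reads. IL11, LIF and CXCL8 were highest in Early_S, and IL11 averaged 99.2 ± 14.2 CPM there and 29.2 ± 2.62 CPM in G1. The median of log2 level in G1 minus the mean of the later gates, on log2(CPM + 1), was 0.16 for these 8 genes and 0.02 for all genes tested.

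Of 11 other laminin chains, 10 were tested and 4 called, all highest in G1, with a median of 0.31 on the same scale. LAMA3 shared the gap of LAMA4: its reads numbered 73 in G1 and 0 in Early_S, then 40 in Late_S and 71 in G2. LAMB3 was abundant and was called, at 233.3 ± 36.6 CPM in G1 against 138.2 ± 15.2 CPM in Early_S. Of 25 other integrin chains 17 were tested and 4 called, ITGA2, ITGA5, ITGA6 and ITGB5, each highest in G1, where ITGAM had 1 read. The median of those 17 was -0.01.

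Of 8 other SLITRK proteins and their receptor phosphatases 5 were tested and 1 called: SLITRK4, at 12.1 ± 4.77 CPM in G1, 13.2 ± 4.69 CPM in Early_S, 8.35 ± 1.69 CPM in Late_S and 6.18 ± 0.250 CPM in G2. Of 9 other ribosomal proteins, tissue forms and RPL3 itself, 8 were tested and 4 called. RPL3 averaged 750.1 ± 92.8 CPM in G1 and 796.4 ± 105.6 in Early_S, and RPS27L, a p53 target, was highest in G1. Of 9 other SLC4 transporters 6 were tested and 1 called, SLC4A7, at 69.6 ± 2.06 CPM in G1 and 44.5 ± 10.2 in Early_S. Of 9 Xin relatives and partners 5 were tested and 2 called: FLNC, a muscle filamin, was highest in G1 (643.9 ± 49.1 CPM), and XIRP1 in Early_S (14.3 ± 2.21 CPM). Of 8 skin partners of CYSRT1 3 were tested and 1 called, LOR, which encodes loricrin and had 12.8 ± 3.77 CPM in G1 and 3.85 ± 1.82 in Late_S. Medians of the tested genes were 0.09, 0.14, 0.07, -0.03 and 0.12, in the order of these 5 lists.

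Markers of the tissues in which the 9 genes are known ranged from 0 reads to high levels. Of 12 striated muscle markers 5 were tested and 0 called by edgeR, with MYH1, MYH7, TNNT3 and MYOG at 0 reads. The list summed to 4.49 to 8.55 CPM in G1 and 5.36 to 9.02 CPM in G2. ACTC1 gave the most, at 2.91 ± 0.211 CPM in G1 and 5.25 ± 1.22 CPM in G2. Of 12 myeloid markers 4 were tested and 1 called (MPO, highest in G2), with LYZ and TYROBP at 0 reads and a sum of 27.4 to 34.2 CPM in G1 and 33.8 to 36.0 CPM in G2, to which ITGB2 and MPO gave the most. Of 11 germline markers in the files 3 were tested (DMC1, TEX14 and PIWIL1) and 0 called, and DAZL, SPO11 and TDRD1 were at 0 reads. The germline list summed to 0.967 to 4.16 CPM in G1 and 2.25 to 5.12 CPM in G2. DMC1, its most abundant gene, averaged 0.595 ± 0.796 CPM in G1 and 2.03 ± 1.65 CPM in G2. Of 12 keratinocyte markers 6 were tested and 2 called, KRT14 and LOR, both highest in G1, with KRT1 at 0 reads. Their sum was 155.8 to 200.9 CPM in G1 and 168.5 to 179.0 CPM in G2, most of it KRT10, which averaged 146.5 ± 26.3 CPM in G1 and 162.7 ± 19.3 CPM in Early_S and was not called.
Of 12 neuronal markers 9 were tested and 5 called, 3 of them highest in G1 (STMN2, GAP43 and NEFL). SNAP25 was lowest in G1, at 4.09 ± 2.30 CPM against 17.1 ± 0.773 CPM in Early_S, and so was MAP2, at 0.975 ± 1.09 CPM against 5.42 ± 1.54 CPM in Late_S. The sum of the list was 253.0 to 321.5 CPM in G1 against 158.5 to 201.1 CPM in G2, with TUBB3 at 0 reads. NEFL made up most of it. The part of this list in the level of SLITRK6 was not tested. Of 11 osteosarcoma markers 9 were tested and 5 called. COL1A1, SPARC and VIM were abundant, with VIM at 3424 ± 217.8 CPM in G1, while TWIST1 was at 0 reads. COL1A2, which was not tested, had 32 reads in G1, all in 1 library (0.592 ± 1.03 CPM). It had 0 reads in the later gates and 8 in No_alkylation.

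Of the 18 nearest expressed genes along the chromosomes, 3 were called, against 34.1% of all genes tested. SPRY2, an inhibitor of growth factor signalling and the nearest below SLITRK6 at 5456 kb, averaged 11.3 ± 2.55 CPM in G1, 2.55 ± 1.11 CPM in Early_S, 2.001 ± 0.848 CPM in Late_S and 2.998 ± 1.36 CPM in G2. TUBB4B beside CYSRT1 was highest in G2, and DGKK beside CCNB3 in Early_S. ITGAX, the CD11c gene 24.7 kb from ITGAM, was not called and had 2.61 ± 0.658 CPM in G1. MSRB1, 2.715 kb from RPL3L, and MED24, 1.28 kb from CSF3, were not called either.

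Over the 12 alkylated libraries, the names with the most similar levels were found by Pearson correlation of log2(CPM + 1), among 14027 names with at least 50 reads. The best match was far more abundant than the message itself for every message but XIRP2. GALR2, the best match of XIRP2, had 169 reads in G1 against 95 for XIRP2. The 2 best matches of SLITRK6 were HIST1H2BJ (r = 0.993) and KRTAP2-3 (r = 0.992). These are a histone gene with 17307 reads in G1 and 4208 in Early_S and a keratin-associated gene with 66906 and 20506. For RPL3L they were NOV (0.982) and CD59 (0.971), and for CSF3 HIST2H2BE (0.970) and CD59 (0.969). The best values of the others were lower: 0.908 for LAMA4 with MTAP, 0.902 for ITGAM with NCSTN, 0.925 for XIRP2 with GALR2, 0.912 for CCNB3 with KCNC4, 0.929 for CYSRT1 with TPM3 and 0.927 for SLC4A4 with NFKB2. These are the highest of 14027 values, and the points share the libraries, their depth and their scaling.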

How the data were processed

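The 15 libraries are 3' end SLAM-seq of sorted U2OS cells. Per the file headers, the authors made the deposited tables with slamdunk 0.2.4, and per the submitters' processing notes the build is hg38; the regions match an Ensembl release 90 annotation named in those headers. The read counts, T>C read counts, multimapped counts and counts of covered and converted T positions were used as deposited. The deposited conversion rate, a fraction made by the authors, was recomputed from summed counts, and the deposited CPM values were used only to recover library totals. How reads were aligned, and how many conversions make a T>C read, is not given in the sources.

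All regions with the same name were added. Levels were CPM with TMM factors over 15 libraries. Reads were fitted by edgeR 4.0.16 quasi-likelihood tests (R 4.3.3; filterByExpr, minimum 10 and total 15), two-sided, with Benjamini-Hochberg adjustment over all genes and calls at 0.05. The labelled share used T>C and other reads as separate columns, scaled by library totals, for genes with at least 50 reads and 10 T>C reads. In simulated data, 59% of genes changed 2-fold and 84% of those changed 4-fold were called among the 13755 genes of the level test, with 2.72% of calls false. In the share test of 13506 genes 86% of those changed 4-fold were called, with 3.37% false. DESeq2 1.42.0, RLE factors, other filters and leaving out libraries were alternatives. Shares have exact Clopper-Pearson intervals at 95%. Genes named are the 9 messages, 2 most correlated names each, nearest expressed neighbours, the 3 most abundant genes of each list and called genes with the same highest gate; other genes named where a count was 5 or fewer were chosen after their values were seen. The 9 messages and the lists were chosen with earlier results of these data known. A further gene that met the naming rule is not reported here.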

Additional observations from a re-analysis of the deposited data

How the results depend on the processing

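The number of genes called across the gates stayed within 1.5 times under the alternatives run, and was 3974 to 4618 when each library was left out in turn (4693 with all). The 9 messages called fell to as few as 6. The call of LAMA4 ended without any of 9 of the 12 libraries (G1 2 and 3, Early_S 1 to 3, Late_S 1 and G2 1 to 3; adjusted p 0.0529 to 0.128). That of SLC4A4 ended without G1 1, 2 or 3 or Late_S 2 (0.0623 to 0.0739), that of XIRP2 without G1 1 or 2 (0.0626 and 0.0781), and that of CCNB3 without G2 3 (0.0575). RPL3L was not called by DESeq2 (adjusted p 0.159).

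Nascent calls numbered 1193, 844 to 1331 with a library left out, 1843 by DESeq2 and 6447 when T>C reads were scaled by all reads; SLITRK6 and RPL3L were called in each. Labelled-share calls numbered 10929, 10258 to 11052 with a library left out, and 3730 with TMM factors for each kind of read, of which 2729 were higher and 1001 lower in alkylated libraries, against 10929 and 0. Of the 4 messages with reads in No_alkylation that were tested, none was called in any setting that tested it; RPL3L, CSF3 and CYSRT1 had no ratio there to test. The cause of these moves was not tested.

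The share of a message's level in its highest gate, over settings that left out a replicate number, was 100% for SLITRK6, 88.1% to 95.8% for RPL3L, 96.7% to 100% for CSF3, 44.1% to 61.8% for LAMA4, 28.7% to 49.2% for ITGAM, 63.4% to 83.5% for XIRP2, 32.2% to 46.8% for CCNB3, 53.2% to 60.0% for CYSRT1 and 39.7% to 57.9% for SLC4A4. The highest gate of ITGAM became Early_S without replicate 1 or 3 (45.3% and 47.2%), and that of CCNB3 became Late_S without replicate 2 (34.5%).

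Deviations of libraries with the same replicate number correlated at -0.0166 to 0.0308 (median 0.00829), against -0.0328 to 0.0189 (median -0.0029) for other pairs. The highest values were between same-numbered libraries, but all were too small to take the number as a pairing. With a replicate block, 4930 genes were called across the gates, 1225 in nascent counts and 10825 in the labelled share, and LAMA4 lost its call (adjusted p 0.0686). With 137 to 821 reads per message, a gate at 0 reads bounds a level and does not show absence.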
